A study of Mus musculus with 2 samples.

Results

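Mouse miRNA loci that are known only by the letters Gm and a number are predicted genes that have not received a Mir symbol. They were taken from the 1973 miRNA genes counted in each of 2 libraries, as every gene whose identifier is annotated as a miRNA gene with a Gm symbol. Of 843 such genes, 836 were kept, and 7 that lie across a known miRNA gene on the other strand were left out. One kept locus, Gm25641, also lies across a known miRNA gene on the other strand, Mir9-1, which was not among the identifiers with a name. The remaining genes of the tables were 1051 with Mir symbols and 79 identifiers that matched no name. The rule for the 836 loci is stated in names and positions, but it was set with earlier results of these data known. The libraries are microRNA-seq of liver from mouse embryos of embryonic day 15.5, strain B6NCrl, with both sexes pooled. Replicate 1 was a pool of 78 embryos and replicate 2 a pool of 62, and both were made from total RNA with a size range below 30 nucleotides. There is 1 group, with no treatment and no mutant, so the libraries could be compared only with each other. A pool averages its embryos, and the spread between the libraries is that of pools and library making, not of single animals.

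A miRNA gene is transcribed into an RNA that folds into a hairpin. The nuclear enzyme Drosha with its partner Dgcr8 cuts the hairpin from the transcript, Dicer cuts off the loop, and one strand of the remaining duplex is loaded into an Argonaute protein, where its seed (bases 2 to 8 from the 5′ end) pairs with target mRNAs. Predicted loci of this kind were annotated because the genome sequence resembles known hairpins or folds like one. A size-selected small RNA library also holds short fragments of longer RNAs, and a gene count alone does not tell a mature miRNA from such a fragment. Liver of this age holds hepatocytes and is also a site of blood formation.

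The locus with the most counts, Gm23935, and 5 loci whose sequence is alike are shown first, since together they held most of the counts of all 836 loci. Capitals mark the bases that differ from Gm23935. Positions are counted from 1 at the 5′ end of Gm23935, each locus is written 5′ to 3′ on its own strand, and coordinates are of the assembly mm10.
Gm23935, chr16:11144125-11144181, plus strand: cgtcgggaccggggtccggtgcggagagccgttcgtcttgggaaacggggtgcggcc
Gm24187, chr13:9834469-9834525, minus strand: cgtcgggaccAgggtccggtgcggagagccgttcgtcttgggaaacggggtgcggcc
Gm25911, chr1:167340369-167340424, minus strand: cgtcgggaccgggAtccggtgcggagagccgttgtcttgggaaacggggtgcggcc
Gm23388, chr8:85112012-85112068, minus strand: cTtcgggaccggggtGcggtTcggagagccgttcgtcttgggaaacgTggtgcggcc
Gm24245 on chromosome 4 (139338304 to 139338360, plus strand) and Gm24270 on chromosome 9 (56223715 to 56223771, minus strand) were identical to Gm23935 in all 57 bases. Gm24187 differed by G11A, or 98.2% identity. Gm25911 differed by G14A and lacked the base at position 34, which left 56 bases and 96.5% identity. Gm23388 differed by G2T, C16G, G21T and G48T, or 93.0% identity. The family was put together after the counts were seen. No locus of the family reached 90% identity over 20 bases with a Mir-named gene or with any of 3885 other small RNA genes of the annotation. The large ribosomal RNAs were not among these and were not compared.

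Most of the 836 loci had no counted reads. On their own strand, called sense here, 794 loci (95%) had 0 counts in both libraries, 42 (5.02%) had at least 1 count in either, and 27 had counts in both. Of the other 15, 8 had counts only in replicate 1 and 7 only in replicate 2. Over all 1973 genes, 35.1% had a sense count in either library, and among the 1051 Mir-named genes 61.8% did. The predicted loci were therefore counted less often than the annotated genes as a whole. Levels are given as CPM, a locus's counts divided by the sense miRNA counts of its library and multiplied by 1000000. A locus with no count could still have had up to 3, which is 0.543 CPM in replicate 1 and 0.946 CPM in replicate 2. These limits apply to the loci at 0 only, and follow from a depth of 5529166 sense counts in replicate 1 and 3169882 in replicate 2. They cover counted reads only. Reads that map to several places were not counted, so at loci with identical copies they do not limit the level of the sequence.

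With at least 10 sense counts required in both libraries, which is 1.81 CPM in replicate 1 and 3.15 CPM in replicate 2, 7 of the 836 predicted loci (0.837%) were detected. The background was 17.8% of all 1973 genes, and 345 of the 1051 Mir-named genes (32.8%) were detected. The 178 genes Mir6896 to Mir7094, a numbered run of Mir symbols, had 4 detected (2.25%). At a minimum of 1 count in both libraries, 36.5% of Mir6896 to Mir7094 were reached and 3.23% of the predicted loci. At 20 counts none of Mir6896 to Mir7094 was left, and 6 of the predicted loci were. At 100 counts 1 predicted locus was left (0.120%), against 21.2% of the Mir-named genes.

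**Figure D1:**
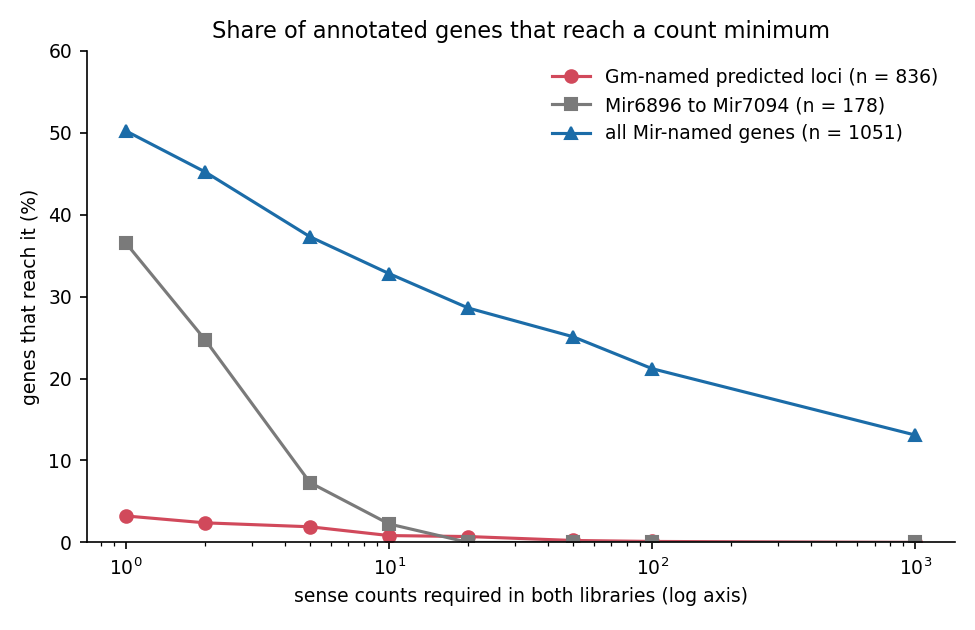
Share of genes (percent, vertical axis) with at least the stated number of sense counts in both libraries (horizontal axis, log scale), for 836 predicted loci, 178 genes from Mir6896 to Mir7094 and all 1051 Mir-named genes. The line of the predicted loci runs from 3.23% at 1 count to 0% at 1000 counts, and that of the Mir-named genes from 50.2% to 13.1%.

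Sense counts of the 836 loci summed to 1220 in replicate 1 and 1122 in replicate 2. That is 0.0221% of the sense counts of replicate 1 (exact Clopper-Pearson 95% interval 0.0208 to 0.0233) and 0.0354% of those of replicate 2 (0.0334 to 0.0375), with a mean of 0.0287% ± 0.00943 (SD, n = 2). The intervals do not overlap. Gm23935 held 66.5% of these counts in replicate 1 and 71.3% in replicate 2. Without it 409 and 322 counts were left, spread over 41 loci.

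Gm23935 was the only predicted locus above 100 CPM, a level that 186 Mir-named genes passed. It had 811 counts in replicate 1 and 800 in replicate 2, or 146.7 CPM (95% interval 136.8 to 157.1) and 252.4 CPM (235.2 to 270.5). Replicate 2 was the higher library, and the intervals do not overlap. By mean level it ranked 159th of all 1973 genes, with 158 detected Mir-named genes above it and 187 below. The annotation places it in an intron of Zc3h7a, which encodes a zinc finger protein and runs on the other strand.

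The other loci of the family were far lower, also where the sequence was the same. Gm24245, identical to Gm23935 and lying between genes, had 26 and 37 counts (4.70 and 11.7 CPM). Gm24270, the third identical locus, lies in an intron of Peak1, which encodes a pseudokinase, and had 8 and 2 counts (1.45 and 0.631 CPM). The 3 identical loci together had 845 counts in replicate 1 and 839 in replicate 2, most of them at Gm23935. Gm23388, in an intron of the zinc finger gene Zfp791, had 31 and 28 counts (5.61 and 8.83 CPM). Gm24187 (12 and 8 counts) and Gm25911 (8 and 15 counts), both between genes, were each below the minimum in 1 library. The 6 loci summed to 896 counts in replicate 1 and 890 in replicate 2, which was 73.4% and 79.3% of the sense counts of all 836 loci. The deposited tables hold reads that map to several places in a row of their own, 29.3% of all reads in replicate 1 and 31.1% in replicate 2, so reads that lie wholly within the shared bases would stand there. Which reads gave the counts of each identical locus, and the bases beside the loci, were not analysed here, and the split between these loci is uncertain.

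Next to Gm24245 on the same strand of chromosome 4, with 38 bases between them, lies another predicted locus, Gm25732, which is not part of the family. It is shown because it lies so near a locus of the family and also had counts in both libraries. Like the family, it was not compared with the large ribosomal RNAs.
Gm25732, chr4:139338206-139338265, plus strand: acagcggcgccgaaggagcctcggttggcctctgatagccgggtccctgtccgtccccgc
It had 7 counts in replicate 1 and 5 in replicate 2, or 1.27 and 1.58 CPM, below the minimum in both.

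Of the 7 detected loci, 4 lay in exons of protein-coding genes on the same strand, each with its middle within 127 bases of a transcript start. Gm26117 (chr15:74563821-74563915, plus strand) lies in an untranslated exon of Adgrb1, which encodes an adhesion receptor, and its middle is 15 bases from a transcript start. It had 93 counts in replicate 1 and 81 in replicate 2, or 16.8 CPM (13.6 to 20.6) and 25.6 CPM (20.3 to 31.8), and it was the second of the predicted loci by level. Its GC content, 91.6%, was the highest of the 42 loci with counts. Gm23634 (chr4:134468364-134468454, plus strand) lies in an untranslated exon of Stmn1, which encodes the microtubule-destabilising protein stathmin, with its middle at a transcript start. It had 45 and 24 counts, 8.14 CPM (5.94 to 10.9) and 7.57 CPM (4.85 to 11.3), so its libraries overlapped. Gm25745 (chr10:86705316-86705448, minus strand) spans coding and untranslated bases of Hsp90b1, which encodes a chaperone of the endoplasmic reticulum, 127 bases from a start. It had 26 and 34 counts, 4.70 CPM (3.07 to 6.89) and 10.7 CPM (7.43 to 15.0), with replicate 2 above replicate 1. Gm27920 (chr10:123196876-123196971, minus strand) spans coding and untranslated bases of Usp15, which encodes a deubiquitinase, 2 bases from a start. It had 23 and 10 counts, 4.16 CPM (2.64 to 6.24) and 3.16 CPM (1.51 to 5.80), and it stood just inside the minimum.

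The order of the 7 by mean level was Gm23935, Gm26117, Gm24245, Gm23634, Gm25745, Gm23388 and Gm27920. Gm23935 and Gm26117 were apart from each other and from the rest in both libraries. From Gm24245 to Gm23388 the mean levels ran from 8.19 ± 4.93 to 7.22 ± 2.28 CPM (SD, n = 2), and these neighbours did not differ beyond their spread. Among all genes the last 6 ranked between 247th and 344th. The median level of the 7 was 7.86 CPM, against 143.4 CPM for the detected Mir-named genes.

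**Figure D2:**
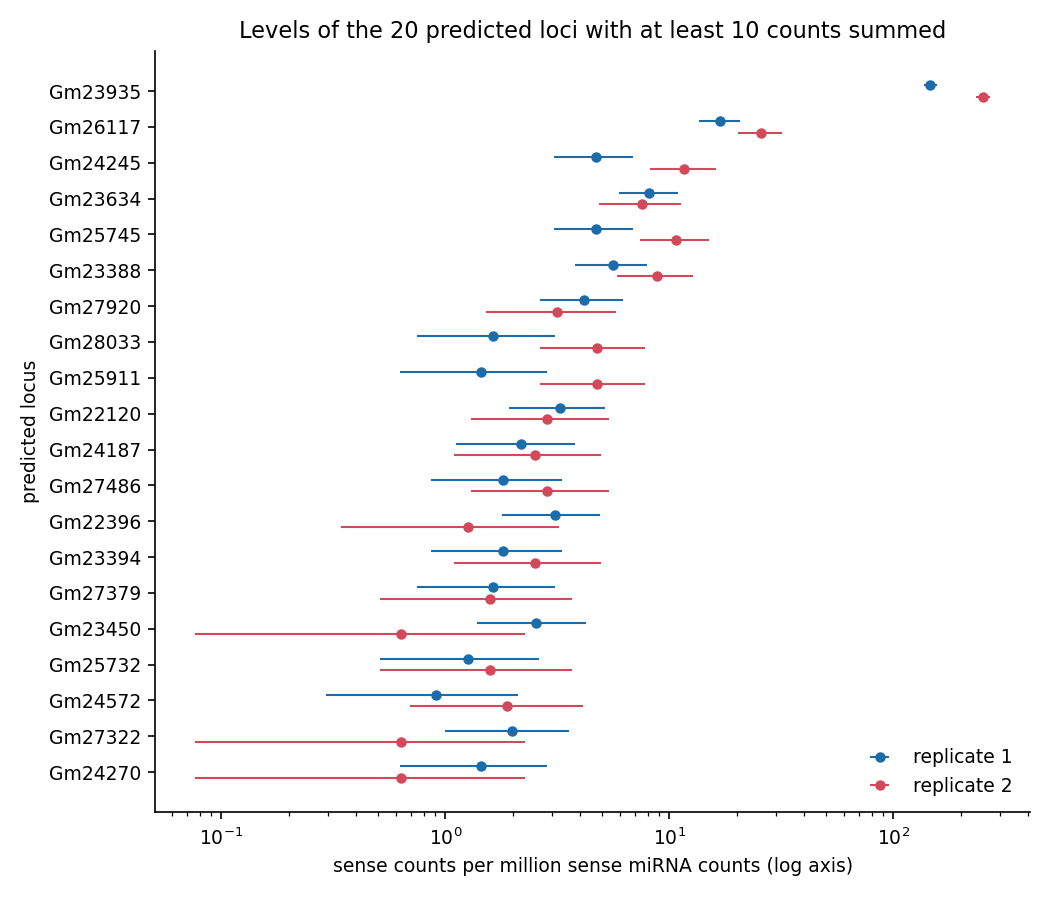
Sense CPM (horizontal axis, log scale) of the 20 predicted loci with at least 10 sense counts summed, by library, with exact 95% intervals for counting error. Gm23935 stands apart at 146.7 and 252.4 CPM, and from Gm24245 to Gm23388 the intervals of neighbouring loci overlap in each library.

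The loci just outside the minimum had 8 or 9 counts in their lower library. Gm28033 (9 and 15 counts, 1.63 and 4.73 CPM) lies across the coding exon of Ppp1r18, a protein phosphatase regulatory subunit gene, on the other strand. Gm22120 (18 and 9 counts, 3.26 and 2.84 CPM) lies in an intron of the predicted gene Gm48807 on the other strand. Gm27486 (10 and 9 counts, 1.81 and 2.84 CPM) lies in an untranslated exon of Sbno1, 8 bases before a transcript start. Both Gm28033 and Gm22120 are printed as the loci nearest below the minimum outside the family that touch no untranslated exon. Gm22120 also holds a run of 21 bases, tcctaacagcaggagtaggag, that is also in Mir3098, a gene with 1.81 and 1.89 CPM.
Gm28033, chr17:35868302-35868397, minus strand: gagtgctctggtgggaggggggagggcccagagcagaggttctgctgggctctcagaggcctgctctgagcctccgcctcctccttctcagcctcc
Gm22120, chr12:105865724-105865793, minus strand: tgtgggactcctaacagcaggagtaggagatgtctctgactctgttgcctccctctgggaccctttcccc
Of the 35 loci with sense counts below the minimum, 15 had only 1 or 2 counts in all, so their levels cannot be told from one another at this depth.

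Each gene with 10 or more sense counts summed was tested for a difference between the libraries, 456 genes in all, by an exact conditional binomial test (two-sided, Benjamini-Hochberg adjusted). It sets 1 library against 1 library of the same group, covers counting error only and says nothing of a condition. Higher in replicate 2 were 18.9% of the 456 genes and lower were 19.7%. Of the 836 predicted loci 20 had enough counts to be tested, and 6 of the 20 were higher in replicate 2 and 0 lower by the adjusted exact test. At an unadjusted p below 0.05 the exact test also gave 6 of 20. The median log2 ratio of replicate 2 over replicate 1 was 0.37 over the 20 loci, of which 12 were above 0, and -0.03 over all 456 genes.

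The 6 loci were Gm23935, Gm26117, Gm24245, Gm25745, Gm25911 and Gm28033. Gm23935, with 811 and 800 counts in libraries of unequal depth, had a log2 ratio of 0.76 (95% interval 0.61 to 0.90, exact binomial test, adjusted p = 2.13e-24). Gm24245, with 26 and 37 counts, had 1.29 (0.52 to 2.07, exact test, adjusted p = 0.00225). Gm25911, with 8 and 15 counts, had 1.68 (0.35 to 3.13, exact test, adjusted p = 0.0237). Gm23935 and Gm24245 are identical and Gm25911 is alike, and these 3 loci may not be separate evidence of a difference. Outside the family, Gm26117 had a log2 ratio of 0.58 (0.13 to 1.02, exact test, adjusted p = 0.0271), Gm25745 had 1.16 (0.38 to 1.96, exact test, adjusted p = 0.00696) and Gm28033 had 1.51 (0.23 to 2.89, exact test, adjusted p = 0.0465). Gm28033 was no longer called when all genes with at least 1 count were tested. The remaining loci of the family were not called, and Gm23388 had a log2 ratio of 0.63 (-0.16 to 1.41, exact test, adjusted p = 0.206). Gm23634 had -0.13 (-0.91 to 0.61, exact test, adjusted p = 0.893), and Gm27920 had -0.43 (-1.66 to 0.70, exact test, adjusted p = 0.626). Beside these differences, the multimapping share of reads was 29.3% in replicate 1 and 31.1% in replicate 2, and the unmapped share was 23.9% and 21.4%. Their part in the result was not tested.

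Marker miRNAs of the tissue were measured in the same libraries. The hepatocyte markers Mir122, Mir192 and Mir802 summed to 185817 and 171884 CPM in replicates 1 and 2, and the erythroid markers Mir144, Mir451a and Mir486 to 27150 and 18579 CPM. Of the erythroid markers, Mir451a was lower in replicate 2 (18658 and 8843 CPM), and Mir144 (7777 and 8918 CPM) and Mir486 (714.6 and 818.3 CPM) were higher there. Of the leukocyte list, Mir223 and Mir342 summed to 20671 and 19247 CPM, and the endothelial Mir126a had 44812 and 43586 CPM. Both skeletal muscle markers (summed 1439 and 2653 CPM) and all 3 pancreas markers (1902 and 1526 CPM) had counts in both libraries. Single markers made up most of some sums in both libraries. They were Mir206 (1430 and 2628 CPM), Mir375 (1891 and 1515 CPM), Mir122 (182337 and 168741 CPM) and Mir223 (19475 and 18201 CPM). The hepatocyte marker Mir802 had 25.32 and 1.893 CPM. The sums of the hepatocyte, erythroid, leukocyte and pancreas markers and Mir126a were lower in replicate 2, and the muscle sum was higher. Within the pancreas list only Mir375 was lower there, and Mir216a (2.17 and 2.208 CPM) and Mir217 (9.043 and 9.149 CPM) were nearly level. The part of cell makeup in the counts of the 6 loci above, which were higher in replicate 2, was not tested. Of these markers Mir142 and the neural Mir124-1 and Mir9-1 were not among the 1894 identifiers with a name.

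The share of loci with a count differed by place in the annotation. Of 103 loci in exons on the same strand 17 had a sense count in either library (16.5%), and of 217 in introns on the same strand 12 did (5.53%). Of 23 loci across an exon of the other strand 2 had counts (8.70%), of 126 across an intron of the other strand 5 (3.97%), and of 367 between genes 6 (1.63%). Within the exon loci, 44 overlapped coding or untranslated exon parts of protein-coding transcripts and 16 of these had counts (36.4%). Loci between genes made up the largest class and the one with the lowest share. These are counts of loci and were not tested.

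Distance to a gene start was set at 500 bases after the counts were seen, from the middle of a locus to the start of the nearest protein-coding transcript on the same strand. Within it lay 38 loci, of which 10 had counts (26.3%), and farther away lay 798, of which 32 had counts (4.01%). Distances of 200 and 1000 bases gave 10 and 12 loci with counts. Among the Mir-named genes the shares were 72.0% of 125 within 500 bases and 60.4% of 926 farther away. All 4 detected loci in exons were within 200 bases. Other loci with counts at a start were Gm22396 (17 and 4 counts, Agfg1), Gm23394 (10 and 8 counts, Ralgapa1), Gm27486 (10 and 9 counts, Sbno1) and Gm27322 (11 and 2 counts, Smurf2), all chosen for mention after their values were seen, other than Gm27486. In each of the last 4 the middle of the locus was 6 to 11 bases from a transcript start.

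**Figure D3:**
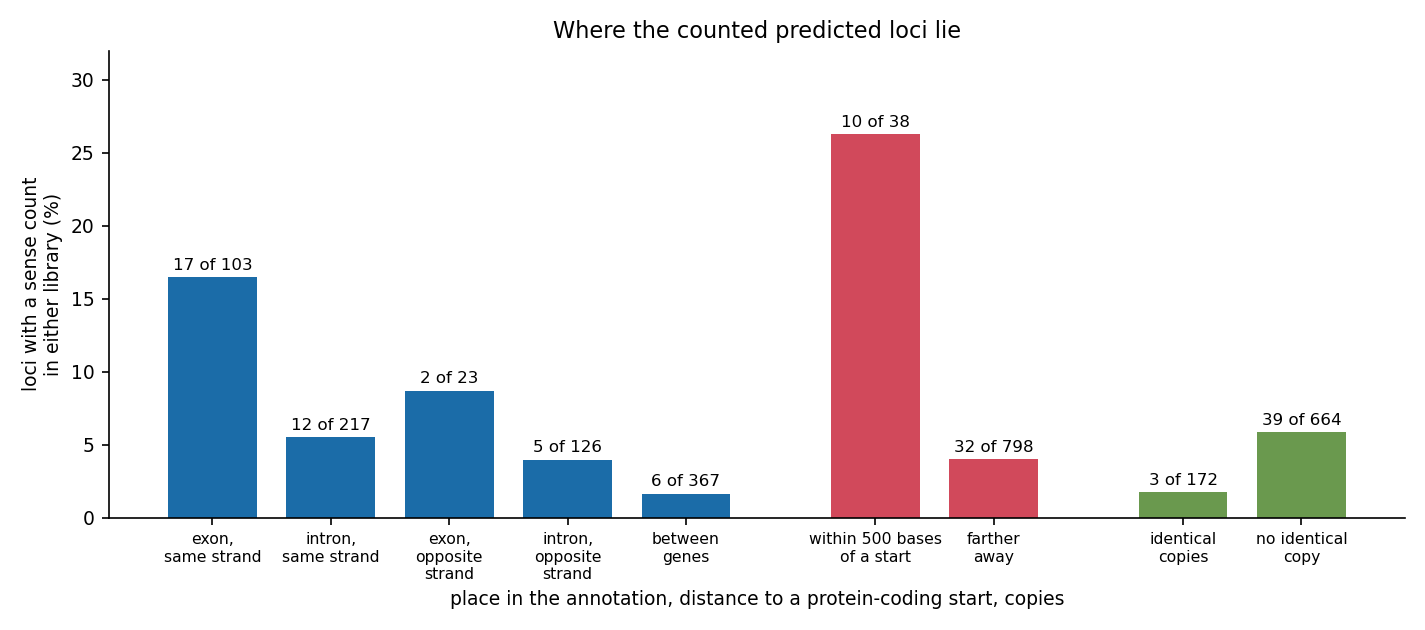
Share of predicted loci with a sense count in either library (percent, bars from 0), by place in the annotation, by distance to the nearest protein-coding transcript start on the same strand, and by whether an identical copy is among the 836 loci. The number of loci with counts and the number in each class stand over each bar. Exon loci (16.5%) and loci within 500 bases of a start (26.3%) have the highest bars of their sets.

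Base composition differed between loci with and without counts. Median GC content was 73.7% over the 7 detected loci (64.7 to 91.6%), 62.8% over the 42 with any sense count and 50% over the 794 without. Among the 7 are the identical Gm23935 and Gm24245 and the alike Gm23388, so the 7 are not all separate sequences. At a GC content of 70% or more, a value chosen after the counts were seen, 14 of 38 loci had counts (36.8%), and these loci held 83.9% of the predicted loci's sense counts in replicate 1 and 86.9% in replicate 2. Without the alike family 9 of 33 such loci had counts (27.3%). At 50 to 60% GC 5 of 269 loci had counts (1.86%). Detected Mir-named genes had a median GC content of 50%, with 80.8% of 26 genes at 70% or more counted and 61.3% of 1025 below it. Both properties were also counted apart. Of 26 loci with high GC away from a start 10 had counts (38.5%). Of these 10, 5 were loci of the alike family, and without the family 5 of 21 had counts (23.8%). With both properties 4 of 12 loci had counts (33.3%), near a start with lower GC 6 of 26 (23.1%), and with neither 22 of 772 (2.85%).

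A miRNA precursor is a stable hairpin, so the minimum free energy of folding was computed for each locus and divided by its length. The median was -0.395 kcal/mol per nucleotide over the 7 detected loci, -0.386 over the 42 with any count and -0.318 over the 794 with none. For Mir-named genes it was -0.436 over the detected and -0.396 over the others. The share of paired bases in the predicted fold was 63.7% for the detected loci and 61.5% for those with none, against 72.9% for the detected Mir-named genes. The 7 detected loci include the identical Gm23935 and Gm24245 and the alike Gm23388. Their median energy was weaker, and their share of paired bases lower, than those of the detected Mir-named genes. Folding energy also follows GC content, and the difference was not tested.

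**Figure D4:**
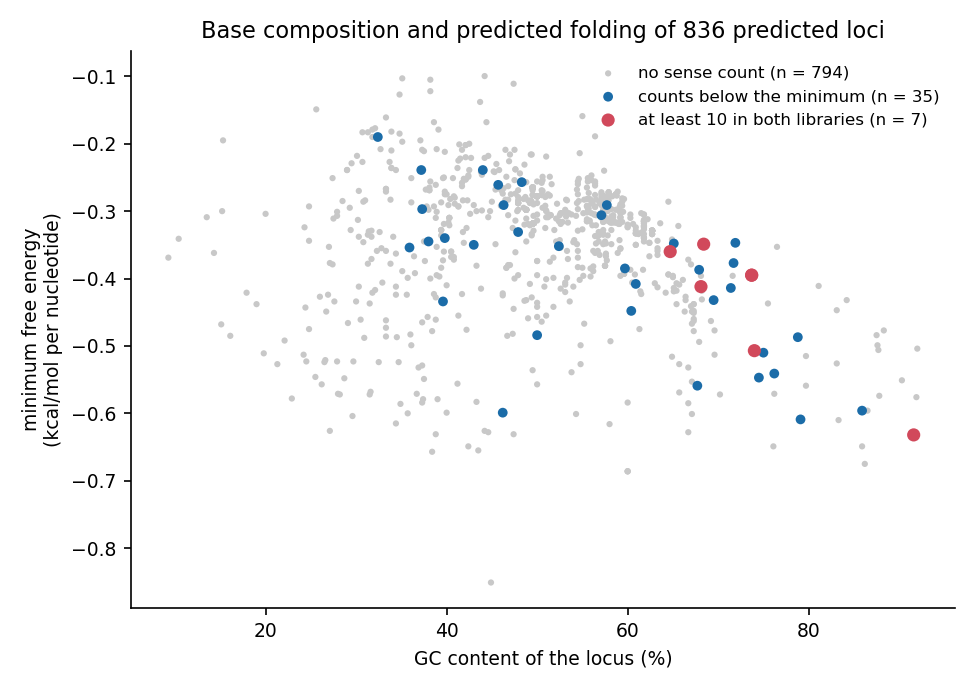
GC content (percent, horizontal axis) and minimum free energy per nucleotide (kcal/mol, vertical axis) of the 836 predicted loci, with loci without counts in grey, those below 10 counts in blue and the 7 detected in red. Gm23935 and Gm24245 have the same sequence and fall on 1 point. The detected loci lie at 64.7% GC or above, and loci without counts span the whole range.

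Many of the uncounted loci were copies of each other. The 836 loci held 704 distinct sequences, and 172 loci (20.6%) had an identical copy among the others, in 40 groups. Only the 3 identical loci Gm23935, Gm24245 and Gm24270 had counts among the 172 (1.74%), against 39 of the 664 with no identical copy (5.87%). The largest groups had 27, 18, 16, 15 and 8 copies, and all were at 0 in both libraries. A read wholly within an identical copy would map to several places, so a count of 0 at these loci does not limit the level of the sequence. One locus of the group of 15, which lies on 9 chromosomes, is shown as an example of a copied, uncounted hairpin.
Gm22475, chr17:5421464-5421565, plus strand: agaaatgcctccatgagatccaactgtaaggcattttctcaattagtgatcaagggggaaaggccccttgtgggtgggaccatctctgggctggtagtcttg

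Most of the 836 loci shared a stretch of like sequence, on either strand, with 1 of a small set of Mir-named genes. The stretch was long in some loci and short in others. Gm22475 matched Mir3471-2 over 102 bases, and Gm22008 matched 39 bases of the opposite strand of Mir466q. With at least 90% identity over at least 20 bases, values chosen after the data were seen, 597 of the 836 loci matched 1 of 92 Mir-named genes, and 17 of the 597 had sense counts. Over all 836 loci 42 had sense counts (5.02%). The 5 genes matched most were Mir3471-2 (56 loci), Mir3470b (53), Mir680-1 (51), Mir466q (49) and Mir680-2 (48), in all 257 loci. None of the 257 had a sense count, and the 5 Mir-named genes were at 0 in both libraries too. A read that maps to several of these like sequences would not be counted, so a shared 0 does not limit their level. Other small RNA genes of the annotation were matched by 257 loci, 3 of them with sense counts, and 4 of the 836 loci were identical to a Mir-named gene over their whole length. Of the detected loci only Gm27920 matched a Mir-named gene, with 92.0% identity over 25 bases of the opposite strand of Mir8112 (10.1 and 11.4 CPM). Gm23134, chosen after its values were seen, lies in an intron of Blcap, had 4 and 1 counts, and shares the 23 bases aggagcttacaatctagctgggg with Mir708, which had 120.6 and 109.8 CPM.

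RefSeq (GRCm38.p6) gives mature miRNA sequences for 9 of the 836 loci, and 2 of the 9 had sense counts. They were chosen by that entry, and their mature sequences are shown because they are the predicted loci with a named product. Capitals mark the seed.
mmu-miR-935 (Gm23450): cCCAGUUAccgcuuccgcuaccgc
mmu-miR-3618-5p (Gm24572): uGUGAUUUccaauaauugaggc
mmu-miR-3618-3p (Gm24572): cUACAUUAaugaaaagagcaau
No other mature miRNA of the RefSeq table had these seeds. Gm23450 (chr7:3415066-3415156, plus strand) lies in a coding exon of Cacng8, an auxiliary subunit gene of glutamate receptors, and had 14 counts in replicate 1 and 2 in replicate 2, or 2.53 CPM (1.38 to 4.25) and 0.631 CPM (0.0764 to 2.28). Its log2 ratio was -2.03 (-5.21 to 0.09, exact binomial test, adjusted p = 0.143). Gm24572 (chr16:18284550-18284637, minus strand) lies in an untranslated exon of Dgcr8, the Drosha partner whose own mRNA is known to carry hairpins that the enzyme cuts. It had 5 and 6 counts, 0.904 CPM (0.294 to 2.11) and 1.89 CPM (0.695 to 4.12), so the libraries overlapped. Mir1306, 233 bases away in the same gene, had 152.3 and 170.7 CPM. The counts are per gene and do not tell the arms of a hairpin apart.

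The other 7 loci with a RefSeq entry had no sense counts. Gm24195 encodes miR-1271, whose 5p arm has the seed of miR-96-5p, Gm27775 and Gm27740 both encode miR-6967, Gm22650 and Gm24627 encode miR-3552 and miR-1911 in introns of the serotonin receptor gene Htr2c, and Gm23363 encodes miR-3154. Gm25641 encodes miR-9b and lies across Mir9-1 on the other strand. Seeds in capitals show the 5p arms of miR-1271 and miR-9b.
mmu-miR-1271-5p (Gm24195): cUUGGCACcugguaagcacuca
mmu-miR-9b-5p (Gm25641): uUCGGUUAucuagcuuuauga
Gm25641 had 0 sense counts in both libraries, and on the opposite strand, that of Mir9-1, it had 7 counts in replicate 1 and 0 in replicate 2.

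On the same strand within 10 kb of a Mir-named gene lay 69 of the 836 loci, 8 of them with counts (11.6%), beside 5.02% over all 836. Of the 69 loci, 40 had a detected Mir-named gene that near, and 7 of the 40 had counts (17.5%). Sfmbt2, whose introns hold a large miRNA cluster, contains 48 of the predicted loci. There 5 loci had counts (10.4%), 6 in replicate 1 and 3 in replicate 2 in sum, beside Mir467c at a mean of 955.9 CPM. These 5 loci are among the 8 and among the 7 with counts above, so both shares rest mostly on this cluster and on few reads. Gm27379 (chr12:109728821-109728943, plus strand), named here for its neighbours after its values were seen, lies 382 bases from Mir544 in a cluster where 11 of 14 Mir-named genes within 10 kb were detected. It had 9 and 5 counts (1.63 and 1.58 CPM), while Mir544 had 3.08 and 1.89 CPM and Mir487b, the highest there, had a mean of 17084 CPM.

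On the opposite strand the predicted loci had almost no counted reads. Opposite counts summed to 18 in replicate 1 and 6 in replicate 2, which was 1.45% (exact 95% interval 0.864 to 2.29) and 0.532% (0.195 to 1.15) of their counts on both strands. The same share was 3.77% and 4.40% over the Mir-named genes, from which no such loci were taken out. Gm25641, across Mir9-1, gave 7 of the 18. Only 9 loci had any opposite count and 7 of them had no sense count, which brings the loci with any count on either strand to 49. No locus reached 10 opposite counts in both libraries, and none had enough to enter the exact test on that strand. Gm23935, with 811 and 800 sense counts, had 0 opposite counts in both.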

How the data were processed

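The authors deposited 1 table of raw read counts for each library, with a column for the sense strand of each miRNA gene, one for the opposite strand and one for their sum. Counting used assembly mm10 and annotation release M4, per the text deposited beside the tables. The aligner is not given in the sources used here, nor is the counter. Names, positions and locus sequences came from GENCODE release M21 on the same assembly. Of 1973 identifiers 1894 matched, 27 of the 836 loci with another version number, so their bounds may differ from those counted. Sense counts were scaled to CPM by their sum. TMM sizes over all rows (edgeR 4.0.16, R 4.3.3) set the expected share of the two-sided exact conditional binomial test (SciPy 1.17.1), with Benjamini-Hochberg adjustment and a threshold of 0.05. Alternatives were DESeq2 1.42.0 size factors, total counts, other count minimums, other strands and leaving out each library. Folding used RNAfold 2.7.2 and similarity blastn 2.17.0. Of the steps only the exact test between libraries was tried on simulated data, which held counting error alone and no spread between pools.

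Per the labels the libraries are biological replicates from separate pools. PCR copies could not be told from separate molecules, since no molecular identifiers are recorded, and intervals and limits for a count of 0 reflect counting error alone. SDs are over 2 libraries. The loci and lists were chosen with earlier results of these data known. Named loci were the 20 highest detected by sense CPM, the 10 highest detected by opposite-strand CPM, every locus that differed between libraries and the 5 just below 10 counts. Others are named as said in the text. Unmapped, multimapping and unassigned reads, 23.9%, 29.3% and 5.40% of 14666947 reads in replicate 1 and 21.4%, 31.1% and 6.23% of 8454226 in replicate 2, entered no total.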

Additional observations from a re-analysis of the deposited data

Results flagged for a closer look

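Opposite-strand counts lay outside the main measurement, and 3 predicted loci passed on that strand the 3 counts that a count of 0 allows, all in replicate 1. Gm25641 had 7 opposite counts there and 0 in replicate 2, Gm24157 had 4 and 0, and Gm27646 had 4 and 0. The 7 left-out loci, which lie across known miRNA genes, had 314704 opposite counts in replicate 1 and 172206 in replicate 2, with 3 and 1 sense counts.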

How the results depend on the processing

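The number of detected predicted loci, 7 at 10 counts, was 27 at a minimum of 1 count, 16 at 5 and 2 at 50. It was 0 on opposite-strand counts and 9 to 14 with either library alone, 14 being replicate 1 without replicate 2. Their share of sense counts, 0.0287%, was 0.00878% without Gm23935 and 0.0108% of all reads, and ran from 0.0221% to 0.0354% with either library alone. Their share of all opposite-strand counts, 0.00264%, ran from 0.00189% to 0.00339% with either library alone and was 56.7% with the 7 left-out loci. The opposite-strand share of their own counts, 0.993%, ran from 0.532% to 1.45% with either library alone. It was 2.22% without the highest locus on each strand and 99.5% with the 7 left-out loci. Without the 6 alike loci, a choice made after seeing the data, 4 loci were detected, the sense share was 0.00659% and 3 loci differed between the libraries, and 5 in place of 10 high-GC loci away from a start had counts. Other scalings and filters gave 4 to 6 differing loci, against 6. A filter of 50 counts summed left Gm25911 and Gm28033 untested, and with no filter Gm28033 was lost. TMM factors from genes with at least 10 counts summed, tried after seeing the data, gave the same 6. On opposite-strand counts no predicted locus could be tested. Log2 ratios of the 12 named loci kept their direction and call in all 36 rescaled values. No paired analysis was possible because there is only 1 group. The depth limits loci under 10 counts, and how reads fell between identical copies was not tested.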
